A study of Mus musculus with 2 samples.

Results

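The cytosolic ribosomal protein genes encode the protein part of the ribosomes that translate nuclear mRNA. The genes were chosen by name among the autosomal protein-coding genes of GENCODE vM21. Their symbols start with Rpl or Rps followed by a digit, or are Rplp0, Rplp1, Rplp2 or Rpsa. Symbols starting with Rps6k or containing -ps were left out. This rule uses no measured value. It gave 82 genes of 20807 autosomal protein-coding genes. Of these, 73 are named subunits of the ribosome, 43 of the large subunit and 30 of the small one. The other 9 are paralogues or proteins that are not subunits, namely Rpl3l, Rpl7l1, Rpl10l, Rpl22l1, Rpl36al, Rpl39l, Rps19bp1, Rps27l and Rps27rt.

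Open chromatin was mapped by ATAC-seq in the organ of Corti, the sensory epithelium of the cochlea, of WT and Bmi1 KO mice at postnatal day 2, and the peaks of each library were deposited as a list. ATAC-seq uses the Tn5 transposase to cut and tag open chromatin, and a peak is a place where more tagged fragments lie than in the surrounding DNA. Each genotype had 1 library, made from 20000 cells of 20 cochleae pooled from 10 mice, so no value below has a replicate error and no test between genotypes could be made. The Bmi1 KO mice were homozygous for the Bmi1tm1Brn allele, a germline null present in every cell, and were littermates of the WT mice on a backcrossed C57BL/6J background. Inside each list 100% of the peak names start with an abbreviation of the opposite genotype, so the libraries are named by their label only. Every direction below rests on it and would be turned if the labels were exchanged.

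Ribosomal proteins assemble with rRNA in the nucleolus, in fixed proportions, and their genes are among the most strongly transcribed of any dividing or growing cell. Their promoters mostly lie in CpG islands and start transcription at a cytosine within a run of pyrimidines. The pyrimidine run at the 5′ end of the mRNA lets the mTOR pathway control its translation. Bmi1 is a subunit of Polycomb repressive complex 1, which modifies histone H2A and represses developmental genes and the Cdkn2a locus. Surplus ribosomal proteins such as Rpl5 and Rpl11 bind Mdm2 and thereby stabilise p53.

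The annotated start sites of 8 genes described below are printed to show where such runs are present and where they are not. Each stretch of 30 bases holds 15 bases before the RefSeq start and 15 bases from the start on, 5′ to 3′ on the strand of the gene, in GRCm38 coordinates. Capitals mark the longest pyrimidine run that reaches within 5 bases of the start.
Rpl27, chr11:101442230-101442259, plus strand: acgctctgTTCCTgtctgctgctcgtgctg
Rpl15, chr14:18270972-18271001, minus strand: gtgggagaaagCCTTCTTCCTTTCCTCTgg
Rps18, chr17:33955651-33955680, minus strand: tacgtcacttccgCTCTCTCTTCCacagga
Rpl38, chr11:114668565-114668594, plus strand: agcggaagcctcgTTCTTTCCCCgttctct
Rplp2, chr7:141447636-141447665, plus strand: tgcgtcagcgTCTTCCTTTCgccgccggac
Rps6, chr4:86857353-86857382, minus strand: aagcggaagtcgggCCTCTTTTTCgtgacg
Rpl37, chr15:5116598-5116627, plus strand: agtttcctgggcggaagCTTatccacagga
Rps19, chr7:24884577-24884606, plus strand: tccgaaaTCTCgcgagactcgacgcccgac
The start base was C in Rpl27, Rpl15, Rps18, Rpl38, Rplp2 and Rps6, and it lay inside the run in all of these but Rpl27. The RefSeq start of Rpl37 was A and that of Rps19 was G, and their runs were 3 and 4 bases long. These starts are annotated and were not measured here. The RefSeq starts of Rpl15, Rps18, Rplp2 and Rps19 lay 405, 336, 281 and 221 bp from the 5′ end of the gene in GENCODE. Those of Rpl38, Rpl27, Rps6 and Rpl37 lay 56, 53, 45 and 32 bp from it. A start in use elsewhere in these genes could hold another run. The longest of the 8 runs, in Rpl15, had 17 bases.

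RefSeq promoter sequences were matched for 62 of the 82 genes, and the shares below describe those 62 genes and not the whole family. Of these 62 RefSeq starts, 41 lay within 50 bp of the 5′ end of the gene in GENCODE. Among all autosomal protein-coding genes 15703 of 20807 were matched. The start base was C in 22 of 62 genes, or 35.5% (exact 95% interval 23.7 to 48.7), against 14% of all promoters. A run of at least 8 pyrimidines reaching within 5 bases of the start was present in 21 genes, or 33.9% (22.3 to 47.0), against 9.33%. An observed over expected CpG ratio above 0.6 was present in 88.7%, against 51.2%. The median promoter held 22 CpG dinucleotides in 300 bases, against 15.

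The 250 bases before the start are printed for 3 genes, namely Rpl37 with the strongest promoter peak in the list labelled Bmi1 KO, Rps19 with the most reads there, and Rps6 with the strongest peak among genes found only there. Capitals mark the motifs searched, on either strand.
Rpl37, chr15:5116363-5116612, plus strand: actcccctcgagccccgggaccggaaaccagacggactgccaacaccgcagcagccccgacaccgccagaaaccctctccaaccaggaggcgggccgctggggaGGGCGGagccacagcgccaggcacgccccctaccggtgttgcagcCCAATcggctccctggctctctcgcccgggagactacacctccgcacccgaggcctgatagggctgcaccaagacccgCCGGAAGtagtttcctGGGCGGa
Rps19, chr7:24884342-24884591, plus strand: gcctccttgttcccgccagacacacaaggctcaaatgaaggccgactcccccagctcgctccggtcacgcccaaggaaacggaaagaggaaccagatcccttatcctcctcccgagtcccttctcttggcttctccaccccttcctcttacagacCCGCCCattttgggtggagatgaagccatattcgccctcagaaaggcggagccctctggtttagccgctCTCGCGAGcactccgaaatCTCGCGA
Rps6, chr4:86857368-86857617, minus strand: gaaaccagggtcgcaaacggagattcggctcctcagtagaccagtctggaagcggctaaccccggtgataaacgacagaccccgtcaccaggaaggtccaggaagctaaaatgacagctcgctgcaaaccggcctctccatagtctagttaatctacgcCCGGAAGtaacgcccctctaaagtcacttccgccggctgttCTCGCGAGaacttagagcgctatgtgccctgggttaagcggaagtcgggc
Position -1 is the base before the start. In Rpl37 the ETS core CCGGAAG began at -23, a GC box (GGGCGG) at -7 and another at -146, and CCAAT at -101. In Rps19 the motif CTCGCGA, a palindrome core bound by ZBTB33-type factors, was found at -25 and -26, on opposite strands and overlapping, and again at -7. In Rps6 the same motif was found at -49 and -50, again overlapping on opposite strands, and an ETS core at -91. The promoter peaks labelled Bmi1 KO covered the printed windows of Rpl37 and Rps6 in full, and that of Rps19 up to its last bases.

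Counted over the 300-base windows, the ETS core was present in 24 of 62 ribosomal protein promoters, or 38.7% (26.6 to 51.9), against 12.6% of all promoters. CTCGCGA was present in 13, or 21% (11.7 to 33.2), against 2.8%. The YY1 motif AAGATGG was present in 14.5%, against 6.42%. The TATA box (TATAAA) was present in 6.45% against 12.9%, and CCAAT in 29.0% against 38.4%. The E-box CACGTG, which Myc binds, was present in 8.06% against 8.11%. Among CpG-rich promoters alone, a subset chosen after the first values were seen, the ETS core was present in 36.4% of 55 ribosomal protein promoters against 20.3% of 8040, and CTCGCGA in 23.6% against 5.15%. The GC box was present in 59.7% of ribosomal protein promoters against 48.8% of all, but among CpG-rich promoters in 63.6% against 74.8%. None of these motifs contains another. The remaining motifs, for NRF1 (GCATGCG) and ZNF143 (ACTACAA), were both present in 6.45%, against 4.73% and 4.01%.

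**Figure D1:**
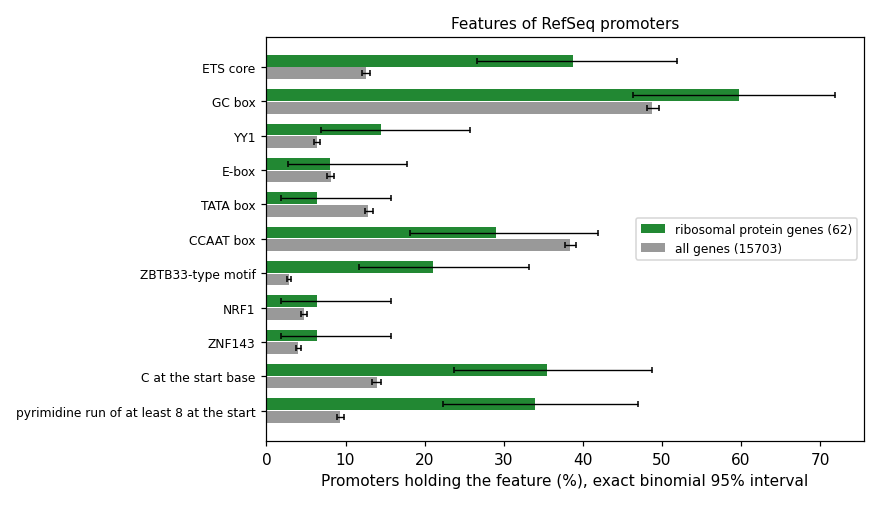
Share of RefSeq promoters, in percent with exact binomial 95% intervals, that hold each motif or start feature, for 62 ribosomal protein genes (green) and 15703 autosomal protein-coding genes (grey). The largest gaps are at the ETS core (38.7% against 12.6%), the ZBTB33-type motif (21% against 2.8%), the C at the start (35.5% against 14%) and the pyrimidine run (33.9% against 9.33%).

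The list labelled WT held 77596 peaks on the autosomes, X and Y and the list labelled Bmi1 KO 100431, with median widths of 260 and 277 bp. The total reads of the libraries are not known from the lists. The lowest background in the lists was 6.32 reads in that labelled WT and 8.04 reads in that labelled Bmi1 KO, a ratio of 1.27, and this difference moves with every comparison of the lists. Of 6 hair cell markers 5 had a promoter peak in the list labelled WT and 6 in that labelled Bmi1 KO, and of 6 supporting cell markers 5 and 4. Of 6 blood and macrophage markers 3 and 0 had a promoter peak, and of 6 endothelial markers 4 and 2, 6 neuronal markers 3 and 3, 6 glial markers 1 and 3 and 6 mesenchymal markers 3 and 3. Over all autosomal protein-coding genes the shares were 51.0% and 62.4%, and counts of 6 markers were not tested against them. The part of cell composition in the results was not tested, and in pooled tissue a site open in more cells cannot be told apart from a site more open in each cell.

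A promoter peak was a peak centred within 1 kb of a transcription start site (TSS) of the gene. In the list labelled WT, 53 of 82 ribosomal protein genes had a promoter peak, or 64.6% (53.3 to 74.9), against 51.0% of all autosomal protein-coding genes. In the list labelled Bmi1 KO, 72 had a promoter peak, or 87.8% (78.7 to 94.0), against 62.4%. The intervals cover counting error over genes only. Ribosomal protein genes were thus above the background share in both lists. They have more annotated starts than other genes, with a median of 6 TSSs against 3. At the 5′ end of the gene alone, 59.8% and 82.9% had a peak, against 42.7% and 55.1% of all genes.

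Both lists had a promoter peak at 50 of the genes, or 61.0% (49.6 to 71.6), against 45.2% of all genes. These peaks overlapped by at least 1 bp at 46 genes, or 56.1% (44.7 to 67.0), against 38.6%. A promoter peak was present only in the list labelled Bmi1 KO at 22 genes, or 26.8% (17.6 to 37.8), against 17.2%. It was present only in the list labelled WT at 3 genes, or 3.66%, against 5.8%. Neither list had a promoter peak at 7 genes, or 8.54%, against 31.8%. Genes found in a single list were therefore mostly on the side labelled Bmi1 KO, as they were among all genes. With the lists limited to equal numbers of their strongest peaks, the counts were again 22 and 3, against 15.1% and 7.45% of all genes.

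Each peak was given a percentile, its rank by −log10 p among all peaks of its own list, with 100 as the strongest. The median percentile of the genes with a promoter peak was 77.9 in the list labelled WT and 88.6 in that labelled Bmi1 KO, against 77.6 and 89.4 over all genes with a promoter peak. Ribosomal protein promoters thus held peaks often but did not rank above other promoters. The strongest promoter peak had the greater percentile labelled Bmi1 KO at 58 of 75 genes with a peak in either list. This was 77.3% (66.2 to 86.2), against 70.8% of all such genes. A missing peak counts as lower, so the 22 and 3 genes found in a single list enter this share by presence alone. Among genes with a peak in both lists the percentile was greater labelled Bmi1 KO at 36 of 50, or 72.0% (57.5 to 83.8), against 68.8%. The median difference of these 50 was 9.29 percentile points, against 5.38 over the 9410 genes with both peaks. It exceeded 25 points in favour of the list labelled Bmi1 KO at 16 genes (32%), against 26.1% of all such genes, and in favour of that labelled WT at 3 (6%), against 7.91%. The family thus moved in the same direction as all genes between the lists. The intervals of the shares 77.3% and 72.0% held the values of all genes, while the median difference was greater in the family.

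**Figure D2:**
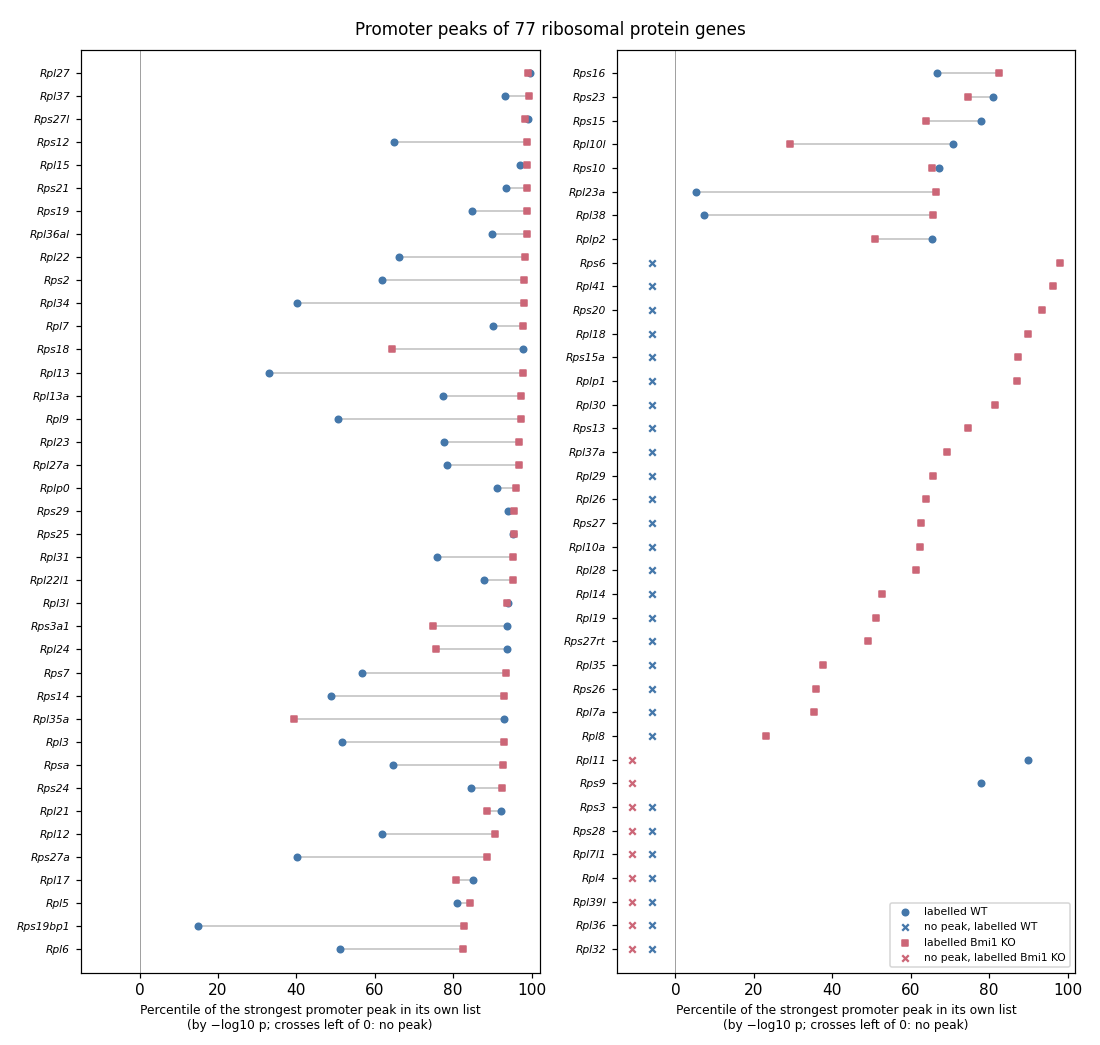
Percentile of the strongest promoter peak of each of 77 of the 82 genes in the list labelled WT (blue circles) and in that labelled Bmi1 KO (red squares), with a line joining the values of a gene found in both lists and crosses left of 0 where a list had no promoter peak. Genes in both lists come first, ordered by the higher of their percentiles, and most lines run from a lower WT value to a higher Bmi1 KO value. They are followed by 21 genes only in the list labelled Bmi1 KO, 2 only in that labelled WT and the 7 in neither.

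The strongest ribosomal protein peak of the list labelled WT was at Rpl27, a large subunit gene linked to Diamond-Blackfan anaemia. Its summit had 32 reads over a local background of 6.44 in the list labelled WT and 39 reads over 8.26 in that labelled Bmi1 KO. These lay at percentiles 99.5 and 99.1, so Rpl27 was near the top of both lists. Rps27l, a paralogue of Rps27 that p53 induces, had 28 reads over 6.32 and 34 over 8.04, at percentiles 99.0 and 98.2. Rpl15 of the large subunit had 25 reads over 6.64 and 40 over 9.22, at percentiles 96.9 and 98.9. The start of Nkiras1 lies within 1 kb of that of Rpl15, and a peak there cannot be given to either gene alone. Rps25 of the small subunit was at percentiles 95.3 and 95.5, and likewise lies within 1 kb of the start of Trappc4.

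Rps18, a protein of the head of the small subunit, stood apart among the strongest. Its summit had 33 reads over a background of 10.2 in the list labelled WT and 32 reads over 14.4 in that labelled Bmi1 KO. The reads were nearly equal and the backgrounds were not, and the percentile was 97.7 in the first and 64.3 in the second. The start of Vps52 lies within 1 kb. The peaks overlapped almost base for base, at chr17:33955441-33955870 and chr17:33955443-33955879.

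In the list labelled Bmi1 KO the strongest peak was at Rpl37 of the large subunit. It had 26 reads over 8.26 in the list labelled WT and 46 reads over 11 in that labelled Bmi1 KO, at percentiles 93.2 and 99.2. Rps12 of the small subunit had 20 reads over 7.1 and 39 over 8.78, at percentiles 64.8 and 98.9. Rps19, the gene most often mutated in Diamond-Blackfan anaemia, had 25 reads over 8.74 and 50 over 14.2, at percentiles 84.8 and 98.8. The peak at Rps19 had the most reads of any in the family, in a region of raised background. All 3 had the greater percentile labelled Bmi1 KO, Rps12 by the widest margin.

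The widest differences in favour of the list labelled Bmi1 KO were at Rps19bp1, Rpl13, Rpl23a, Rpl38 and Rpl34. Rps19bp1, which binds Rps19 and is not a subunit, was at percentile 14.9 in the list labelled WT and 82.8 in that labelled Bmi1 KO, with 20 reads over 9.18 and 34 over 13.9. Rpl13 was at 33.0 and 97.7, with 17 reads over 6.5 and 37 over 10.2. Rpl34 was at 40.1 and 98.1, with 17 reads over 6.32 and 34 over 8.16. In the list labelled WT, 17 reads was the lowest value of the family. Rpl23a, which lies at the exit of the nascent chain tunnel, was at 5.25 and 66.4. Rpl38, known for its part in the patterning of the axial skeleton, was at 7.29 and 65.6, and its peaks did not overlap, with summits 12 bp upstream and 464 bp downstream of a TSS.

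The widest differences in favour of the list labelled WT were at Rpl35a, Rpl10l, Rps18, Rps3a1 and Rpl24. Rpl35a of the large subunit was at percentile 93.0 in the list labelled WT and 39.5 in that labelled Bmi1 KO, with 23 reads over 6.8 and 21 over 8.68. A start of Iqcg lies within 1 kb of an annotated start of Rpl35a. Rpl10l, a retrogene copy of Rpl10 that is used in male germ cells, was at 70.8 and 29.2, with 19 reads in each list. Rps3a1 was at 93.6 and 74.8, and Rpl24 at 93.6 and 75.6. The percentiles of Rps3a1 belong to different peaks, at chr3:86143325-86143585 labelled WT and chr3:86141930-86142723 labelled Bmi1 KO. The overlap counted for Rps3a1 came from another peak labelled Bmi1 KO. Rpl35a and Rps18 were the 2 genes with fewer reads labelled Bmi1 KO than labelled WT. Rpl24 was 1 of 4 genes with promoter peaks in both lists that did not overlap, and Rpl38 and Rps14 were among the others.

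Among the genes without a promoter peak in the list labelled WT, Rps6 had the strongest in that labelled Bmi1 KO. Rps6 is the target of S6 kinase downstream of mTOR. Its summit had 34 reads over 8.4, at chr4:86856921-86857645 and percentile 98.0, while the nearest peak labelled WT was centred 3396 bp from a TSS, at percentile 9.68. Rpl41 had 43 reads over 14.9, at percentile 96.2, and the nearest peak labelled WT was centred 1194 bp away, just outside the window. Rps20 had 27 reads over 8.04, at percentile 93.4. Rpl18 had 44 reads over 18.9, at percentile 90.0, and the highest background of the family. A start of Sphk2 lies within 1 kb of an annotated start of Rpl18.

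Rps15a, Rplp1, Rpl30, Rps13, Rpl37a, Rpl29, Rpl26, Rps27, Rpl10a, Rpl28 and Rpl14 were also found only in the list labelled Bmi1 KO, at percentiles from 87.4 for Rps15a down to 52.6 for Rpl14. Over all 22 genes the range was 23.1 to 98.0, with a median of 63.2, and 7 (31.8%) were at 80 or above, against a median of 69.3 and a share of 38.6% over all genes found only there. Many of these peaks were thus of middle or low rank in their own list. A start of Rab13 lies within 1 kb of an annotated start of Rps27. Rpl26, which can bind the p53 mRNA, was at 63.9 with 24 reads over 9.5. The 3 genes found only in the list labelled WT included Rpl11 and Rps9. Rpl11, which carries the 5S rRNA with Rpl5 and binds Mdm2, had 24 reads over 7.68, at percentile 90.0. Its nearest peak labelled Bmi1 KO was centred 2018 bp from a TSS, at percentile 3.59. Rps9 was at 77.9.

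Neither list had a promoter peak at Rpl4, Rpl32, Rpl36, Rps3 and Rps28, nor at the paralogues Rpl7l1 and Rpl39l. Rpl4 lines the exit tunnel of the large subunit and Rps3 lies at the mRNA entry of the small one. A peak labelled Bmi1 KO of percentile 94.7 was centred 2315 bp from a TSS of Rpl4. A peak labelled WT of percentile 89.7 was centred 2113 bp from a TSS of Rps3. Rpl39l is a copy of Rpl39 used in testis, and its nearest peaks were centred 7111 bp and 22151 bp away. The lists do not show reads outside peaks, so a missing peak is not evidence of closed chromatin.

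The ribosomal stalk, which recruits the translation factors, is made of Rplp0, Rplp1 and Rplp2. Rplp0 was at percentile 91.1 in the list labelled WT and 96.0 in that labelled Bmi1 KO. Rplp1 had no promoter peak in the first and was at 87.2 in the second. Rplp2 was at 65.4 and 50.9, with 21 reads over 7.62 and 27 over 12.1. At Rplp0 the reads were 24 over 7.4 and 36 over 11.3. The genes of this single complex thus differed in presence and in the direction of the percentile. The reads of Rplp0 and Rplp2 were both greater labelled Bmi1 KO. Among all genes with a peak in both lists, 68.8% had the greater percentile labelled Bmi1 KO.

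Rpl5, the partner of Rpl11 on the 5S rRNA, was at 81.0 and 84.3, with 20 reads over 6.32 and 24 over 8.04. Rpsa, which also serves as a laminin receptor, was at 64.6 and 92.7. Rps27a, which is made as a fusion with ubiquitin, was at 40.1 and 88.6, and a start of Clhc1 lies within 1 kb of an annotated start. Rps14, whose loss is part of the 5q- syndrome, was at 48.9 and 93.0, but its gene model spans 31449 bp the peaks of the lists lie at different starts, and the start of Ndst1 is within 1 kb of an annotated start.

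Large subunit genes had a promoter peak in 25 of 43 cases in the list labelled WT (58.1%, 42.1 to 73.0) and in 39 in that labelled Bmi1 KO (90.7%, 77.9 to 97.4). Small subunit genes had one in 22 of 30 (73.3%, 54.1 to 87.7) and 26 (86.7%, 69.3 to 96.2). The intervals of the subunits overlapped in each list. Peaks only in the list labelled Bmi1 KO were at 15 large subunit genes (34.9%) and 6 small subunit genes (20%). Of 20 subunit genes linked to Diamond-Blackfan anaemia, 12 (60%, 36.1 to 80.9) and 18 (90%, 68.3 to 98.8) had a promoter peak. Among all genes 51.0% and 62.4% had one. Of the 20 genes, 7 had a peak only labelled Bmi1 KO (35%, 15.4 to 59.2), an interval that holds the 17.2% of all genes. Of the 9 paralogues and other proteins, 6 (66.7%) and 7 (77.8%) had a promoter peak. The 1 found only in the list labelled Bmi1 KO (11.1%) was Rps27rt, an intronless copy of Rps27 singled out after its value was seen.

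Ribosomal protein genes are short and many carry snoRNA genes in their introns. Their median length was 3399 bp, against 17629 bp over all genes, and 28 of them held 56 snoRNA genes, which guide rRNA modification. Of the 28 host genes 20 (71.4%) had a promoter peak in the list labelled WT and 24 (85.7%) in that labelled Bmi1 KO. Of the 54 others 33 (61.1%) and 48 (88.9%) had one, against 51.0% and 62.4% of all genes. The start of another protein-coding gene lay within 1 kb at 19 genes. Without these, 40 and 55 of 63 genes had a promoter peak, close to the shares of the whole family.

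**Figure D3:**
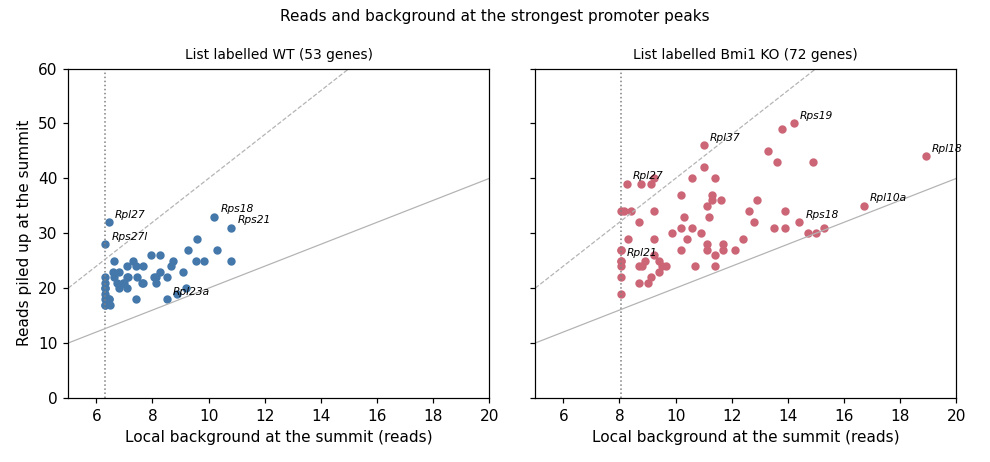
Reads at the summit against the local background for the strongest promoter peak of each gene, 53 in the list labelled WT (left) and 72 in that labelled Bmi1 KO (right), with the lowest background of each list as a dotted line and lines of equal ratio, solid for 2 and dashed for 4 reads per background read. Background reaches 10.8 on the left and 18.9, at Rpl18, on the right, and Rps18 has about as many reads in both panels.

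At the summits of these promoter peaks a median of 22 reads was found in the list labelled WT and 31 in that labelled Bmi1 KO, against 22 and 29 over all genes. The local background was 7.4 and 10.6, against 7.04 and 9.34, and it lay above the lowest background of the list at 83.0% and 88.9% of the genes, against 70.8% and 75%. The median background of these peaks was thus above that of all genes in both lists. The interval of the share held that of all genes labelled WT (70.2 to 91.9) but not labelled Bmi1 KO (79.3 to 95.1). The ratio of summit reads, labelled Bmi1 KO over labelled WT, had a median of 1.46 at the 50 genes with both peaks and ranged from 0.913 to 2.18, against a median of 1.38 over all genes. It was above the ratio of the backgrounds of the lists, 1.27, at 36 of the 50 genes, or 72% (57.5 to 83.8), against 63.6%. Across these 50 genes the −log10 p in one list and in the other had a Spearman rho of 0.256, against 0.468 across 9410 genes with both peaks, and the genes of each list share a library.

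Peaks with a high significance were few in the list labelled WT. A −log10 q of at least 5 was reached at 2 genes (2.44%) in that list, against 4.12%, and at 21 genes (25.6%) in the list labelled Bmi1 KO, against 17.8%. A −log10 q of at least 10 was reached at 0 and 2 genes (2.44%), against 0.413% and 4.49%. The top 5% of the peaks of each list held 6.1% and 30.5% of the ribosomal protein genes, against 10.8% and 20.2% of all genes. Of genes with a promoter peak alone, the top 5% held 9.43% of the family labelled WT, against 21.2%, and 34.7% labelled Bmi1 KO, against 32.3%. A −log10 q of at least 5 was reached at 3.77% and 29.2% of them, against 8.07% and 28.5%. Among genes with a peak, the shares of the family were thus below those of all genes in the list labelled WT and close to them in that labelled Bmi1 KO.

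**Figure D4:**
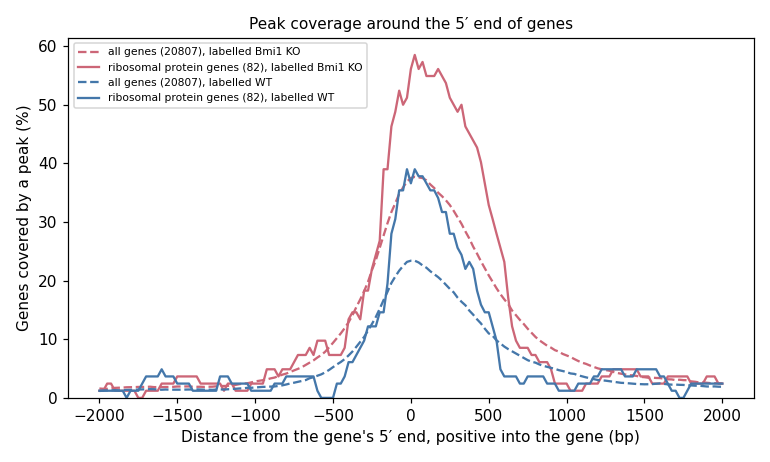
Share of genes, in percent, covered by a peak at each distance in bp from the 5′ end of the gene, positive into the gene, for the 82 ribosomal protein genes (solid) and all 20807 autosomal protein-coding genes (dashed) in the list labelled WT (blue) and that labelled Bmi1 KO (red). Solid lines reach 39.0% and 58.5% at the start and fall below the dashed lines at 1000 bp on either side.

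The coverage of the family by peaks was highest at the start. At 25 bp downstream of the 5′ end, 39.0% of the genes were covered by a peak labelled WT and 58.5% by a peak labelled Bmi1 KO, against 23.4% and 37.7% of all genes. At 500 bp upstream the shares were 0 and 7.32%, against 5.23% and 9.39%. At 1000 bp downstream they were 1.22% and 2.44%, against 4.41% and 7.24%. The order was not the same at every distance. At 600 bp upstream the shares were 1.22% and 9.76%, against 3.79% and 6.89%, and at 1250 bp downstream 4.88% and 3.66%, against 2.94% and 4.74%. Away from the start these shares rest on 0 to 8 genes. The summit lay within 100 bp of the nearest TSS at 27 of 53 genes labelled WT (50.9%, 36.8 to 64.9), against 33.5%, and at 33 of 72 labelled Bmi1 KO (45.8%, 34 to 58.0), against 35.2%. The peak covered the nearest TSS at 71.7% and 84.7% of the genes, against 57.4% and 70.5%. With more annotated starts in the family, the nearest TSS tends to be closer. The peak covered the 5′ end of the gene at 50.9% (36.8 to 64.9) and 61.1% (48.9 to 72.4), against 40.9% and 54.9%, which lie within the intervals.

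Set beside the start sites printed above, a pyrimidine run of at least 8 bases was present at 10 of 39 genes with both peaks and a RefSeq promoter, at 9 of 16 found only in the list labelled Bmi1 KO, and at 2 of the 7 others. Over all genes of the same 3 kinds the shares were 9.06%, 10.1% and 9.3%. The motif CTCGCGA was present at 5, 6 and 2 of the ribosomal protein genes, against 4.35%, 2.88% and 0.68% of all genes of each kind. The ETS core was present at 16, 6 and 2, against 17.5%, 14.3% and 5.3%. With 16 and 7 genes, no difference between the kinds within the family was tested.

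Other gene groups of the protein synthesis and energy machinery were read in the same way. Of 78 mitochondrial ribosomal protein genes, 67.9% (56.4 to 78.1) and 78.2% (67.4 to 86.8) had a promoter peak in the lists labelled WT and Bmi1 KO. Translation initiation and elongation factors had 72.3% and 84.6% of 65 genes, with Eif5a and Eif2s1 the strongest. Ribosome biogenesis factors had 73.9% and 89.1% of 46 genes, with Npm1 and Wdr75 the strongest, and nuclear genes of oxidative phosphorylation 65.1% and 81.9% of 83 genes. Their intervals overlapped those of the cytosolic ribosomal protein genes in both lists. Promoter peaks only in the list labelled Bmi1 KO were at 17.9%, 16.9%, 17.4% and 22.9% of these groups. The share was 17.2% over all genes and 26.8% for the cytosolic ribosomal protein genes. The intervals of the groups overlapped that of the cytosolic ribosomal protein genes as well.

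**Figure D5:**
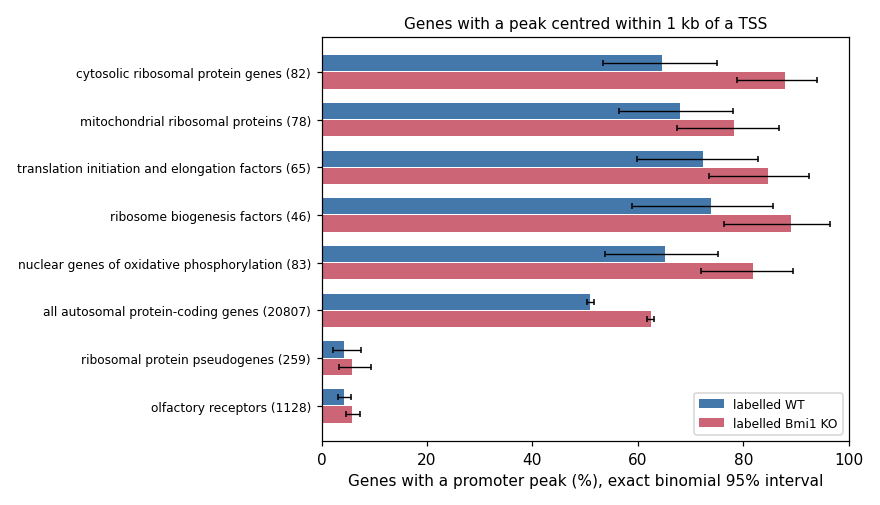
Share of genes with a promoter peak, in percent with exact binomial 95% intervals, in the list labelled WT (blue) and that labelled Bmi1 KO (red) for the ribosomal protein genes, 4 related groups, all autosomal protein-coding genes, ribosomal protein pseudogenes and olfactory receptors, with the number of genes in brackets. The ribosomal protein genes reach 64.6% and 87.8%, like the related groups, while pseudogenes and olfactory receptors stay below 6%.

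Pseudogenes of ribosomal proteins are mostly processed copies, which have no introns and lack the promoter of their parent. Of 259 such pseudogenes 11 (4.25%) had a peak within 1 kb of their start in the list labelled WT and 15 (5.79%) in that labelled Bmi1 KO, and 2 had one in both. Rpl31-ps13 had the strongest in both lists, at percentiles 84.0 and 96.1. These shares were close to those of 1128 olfactory receptor genes, at 4.26% and 5.85%, which are mostly silent outside the nose. Reads that fit a gene and its copies equally well were handled by the authors in a way not given in the sources used here.

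Ribosomal proteins outside the rule, on the X chromosome or under other names, were also read. Fau, which encodes Rps30 as a fusion, was at percentile 15.8 in the list labelled WT and 93.9 in that labelled Bmi1 KO. Rack1, a scaffold on the small subunit, was at 84.2 and 63.7. Rpl10 was at 81.0 and 91.4 and Rpl36a at 23.3 and 78.0, while Rpl39 had a peak only in the list labelled Bmi1 KO, at 15.8. Rps4x had no promoter peak in either list.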

How the data were processed

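ATAC-seq was analysed in 1 library of WT and 1 of Bmi1 KO mice, grouped by the genotype in the labels. After trimming, the authors aligned the reads with BWA-MEM, and MACS2 peaks were called in each library. The submitters' processing notes name the build mm10, and no peak lay past an end of the 21 chromosomes of GRCm38 compared. Tool versions and MACS2 options are not given in the sources used here. Fold enrichment, as deposited, divides summit reads by local background, after adding 1 to both. The deposited −log10 p and −log10 q belong to the summit. The deposited score, 10 times the −log10 p, was not used. The lowest −log10 p in the lists was 2.0 and 2.01, and 52.4% and 62.8% had a q-value under 0.05.

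Peaks on unplaced sequence (230 and 237) were left out. Summit reads and background were recovered by solving those columns, and reads came out whole for 100% of peaks, within 0.005 of the −log10 p. Promoter peaks were assigned with GENCODE vM21, and promoter sequences came from RefSeq (GRCm38.p6). Intervals are exact binomial (Clopper-Pearson). No test between genotypes was made. Scripts were tested on simulated data. Python 3.11.15, numpy 2.4.6, pandas 2.3.3, scipy 1.17.1 and matplotlib 3.10.9 were used.

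The genes, lists and motifs were chosen with earlier results of these data known. Genes were named by rule: those without a promoter peak in 1 or both lists (of those only labelled Bmi1 KO, the 15 strongest), the 5 strongest in each list, the 5 widest percentile differences in each direction and 12 genes chosen for their roles. Alternatives were other thresholds, windows, annotations, overlaps and equal peak numbers. A few genes are counted in the totals but not reported here by name.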

Additional observations from a re-analysis of the deposited data

How the results depend on the processing

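The 6 counts and shares of promoter peaks were recomputed under each alternative, which gave 76 values in all. Of these, 62 stayed within 1.5 times the count, or within the interval of the share, 14 moved further and 0 reversed. The choice of annotation, the 3 kb window, the summit in place of the centre, equal peak numbers, the named subunits alone and the genes without a neighbouring start were among those that stayed. Fewer peaks pass a stricter q-value. At a −log10 q of at least 5, promoter peaks were left at 2 genes labelled WT and 21 labelled Bmi1 KO, 0 were only labelled WT, 2 overlapped, and the percentile was greater labelled Bmi1 KO at 100% of the 21 genes left, against 91.8% of all genes left. At a −log10 q of at least 10, 0 and 2 genes were left, with 2 only labelled Bmi1 KO, 0 only labelled WT and 0 overlapping, and 100% of the 2 had the greater percentile there, against 98.2% of all genes left. A missing peak counts as lower, so these shares follow from the few peaks left in the list labelled WT. Within 500 bp of a TSS, 5 genes had a peak only labelled WT. Overlapping peaks numbered 26 with a reciprocal overlap of at least 50%, and also 26 with summits within 100 bp, against 46. Chosen after the data were seen, ranking by fold enrichment gave 77.3% and the genes with peaks in both lists 72%.

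No paired analysis was possible because each genotype had 1 library. Leaving out a library was not run for the same reason. Lists called separately at different depths are compared by presence and rank, and genotype, library and depth cannot be told apart. The low reads at these summits, 17 to 33 labelled WT, limit the precision of each value.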
